A study of Mus musculus with 10 samples.

Results

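The 10 genes described here code for apolipoproteins that the liver makes (Apoa1, Apoa2, Apoa4, Apoa5, Apob, Apoc1, Apoc3, Apoc4, Apoe and Apom). They were chosen by name from the 31053 genes of the deposited feature table, because Apoa4 stood out in one tissue (NEJ723) and the spatial pattern of Apoa5 stood out in another (NEJ634) when these data were first examined. The levels across tissues and the spatial patterns within sections are therefore given as descriptions, with no test. Only comparisons of spots ranked by hepatocyte zone genes or by macrophage genes were tested, with the tissue as the replicate. NEJ634 and NEJ723 were part of those tests, so their p-values are not independent of the choice of genes.

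Expression was measured on 10 Visium sections, in which barcoded spots under a frozen section of 10 µm capture RNA that is counted as unique molecular identifiers (UMIs). They come from 7 mouse tissues. NEJ146 was cut into 4 adjacent sections, whereas NEJ634, NEJ687, NEJ723, NEJ638, NEJ654 and NEJ677 gave 1 each. The study's model is the ABC-Myc mouse on a C57BL/6J background, which carries 1 copy each of Alb-Cre and CAG-MYC, so that Cre driven by the albumin promoter turns on human MYC in cells of the hepatocyte lineage. The labels call all 10 samples hepatoblastoma, a liver tumour of childhood, and the study's text names NEJ634, NEJ687, NEJ723 and NEJ146 as tumours beside 3 healthy livers, without naming the latter. By elimination the healthy livers would be NEJ638, NEJ654 and NEJ677, which the labels do not state. Genotype, age and sex of each animal were not given in the labels, so each tissue was kept as its own group and no tumour was compared with a liver by a test. The normal controls of the study were littermates lacking 1 or both transgenes. The feature table holds mouse Myc and no entry for human MYC, so expression of the transgene could not be checked.

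Apolipoproteins are the protein part of lipoproteins, the particles in which the blood carries triglyceride and cholesterol. Apob forms the scaffold of very low density lipoprotein, Apoa1 and Apoa2 are the main proteins of high density lipoprotein, and the small Apoc proteins, Apoa4, Apoa5, Apoe and Apom exchange between particles and set how fast these are lipolysed or taken up. Hepatocytes are the main source of most of them, the intestine is a main source of Apoa4, and macrophages also make Apoe.

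The genes lie in both clustered and single positions on GRCm38, as GENCODE M21 annotates them. Apoa1 (chr9:46228580-46230466, plus strand), Apoc3 (chr9:46232933-46235636, minus), Apoa4 (chr9:46240696-46243459, plus) and Apoa5 (chr9:46268633-46271919, plus) share 43.34 kb of chromosome 9. Apoc4 (chr7:19678083-19681479), Apoc1 (chr7:19689481-19692660) and Apoe (chr7:19696109-19699188), all on the minus strand, share 21.106 kb of chromosome 7. Apoa2 (chr1:171225054-171226379, plus), Apob (chr12:7977648-8016835, plus) and Apom (chr17:35128997-35132050, minus) lie apart from these clusters.

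Apoa4 and Apoa5 were neighbours separated by 25174 bases. Their levels ran in opposite directions across the tissues, as did those of Apoa4 and genes on other chromosomes, such as Apoc1 and Apoa2. RefSeq promoter entries on GRCm38.p6 run from 250 bases before to 50 bases after its annotated start, and the sequences of both genes are printed for that reason. Only the bases before the start annotated by GENCODE are shown, since that start lies 148 bases before the RefSeq start in Apoa4, so that 198 of the 300 bases of its entry are inside the gene as given above, and 25 in Apoa5. The Apoa4 sequence is chr9:46240594-46240695 (102 bases) and the Apoa5 sequence, from the first of 2 entries for that gene, is chr9:46268358-46268632 (275 bases), both on the plus strand and written 5′ to 3′. Capitals mark the TATA motif TATAAA, which in Apoa5 lies 31 to 26 bases before the RefSeq start.
Apoa4: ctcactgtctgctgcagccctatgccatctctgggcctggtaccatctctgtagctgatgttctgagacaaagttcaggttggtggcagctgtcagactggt
Apoa5: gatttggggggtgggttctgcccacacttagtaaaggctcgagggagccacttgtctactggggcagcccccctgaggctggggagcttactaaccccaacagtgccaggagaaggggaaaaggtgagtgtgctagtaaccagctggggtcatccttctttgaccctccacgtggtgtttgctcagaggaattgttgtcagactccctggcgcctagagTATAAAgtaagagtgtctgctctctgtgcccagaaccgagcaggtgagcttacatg
Both strands of the whole entries were searched for TATAAA, for the cAMP response core TGACGT and for the HNF4-type site CAAAGTCCA. Promoter entries were available for 8 of the 10 genes, not for Apoc1 and Apoc3. TATAAA occurred in an entry of Apoa2, Apoa5, Apob and Apoe and in 13.6% of all 32851 promoter entries, and in Apoe the matches on either strand overlap. TGACGT (7.51% of entries) and CAAAGTCCA (0.475%) had no match in the entries of these genes, which says only that these letters are absent from the windows.

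Total UMIs per section ranged from 61627315 to 117556249, with 1890 to 4878 tissue spots per section and a median of 12133.5 to 28926.5 UMIs per tissue spot. Levels are given as UMIs of a gene per 1000000 UMIs over tissue spots (CPM). NEJ146 has the mean ± SD of its 4 sections, which covers sectioning and library preparation of 1 tissue, and for the other tissues 95% intervals are exact Poisson intervals that cover counting error only. A spot covers several cells, so fewer cells of a type and less RNA per cell cannot be told apart. NEJ146 also differed in its label (total RNA against polyA RNA) and in its share of mitochondrial UMIs (6.78 to 7.22% against 2.46 to 3.86%), so batch and tissue cannot be told apart there. The hepatocyte markers found in the files (4 of 5) were present in every section and summed to 75559 to 109723 CPM in NEJ638, NEJ654 and NEJ677 and to 14217 to 26863 CPM in the other sections. Afp, the fetal serum protein that marks hepatoblastoma, had 9.63, 3.79 and 4.96 CPM in NEJ638, NEJ654 and NEJ677 and 2023 ± 357 (SD, n = 4) to 4248 CPM in the other tissues.

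All 10 genes passed the minimum of a mean of 10 CPM over tissues. Together they took 6.57%, 8.34% and 7.89% of all UMIs in NEJ638, NEJ654 and NEJ677. The share was 2.86% in NEJ634, 4.16% in NEJ687, 3.77% in NEJ723 and 3.47 ± 0.446% (SD, n = 4) in NEJ146. NEJ638, NEJ654 and NEJ677 were thus the 3 tissues with the highest share. For 8 genes they were also the 3 tissues with the highest level, against 18.1% of the 8021 genes tested. Apoa4 alone had them as the 3 lowest (44.1% of genes), and Apom followed neither order. Among these genes the highest level exceeded the lowest by a median of 3.41-fold, against 2.41-fold for all genes tested, and 64.5% of all genes had a range of at least 2-fold.

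**Figure D1:**
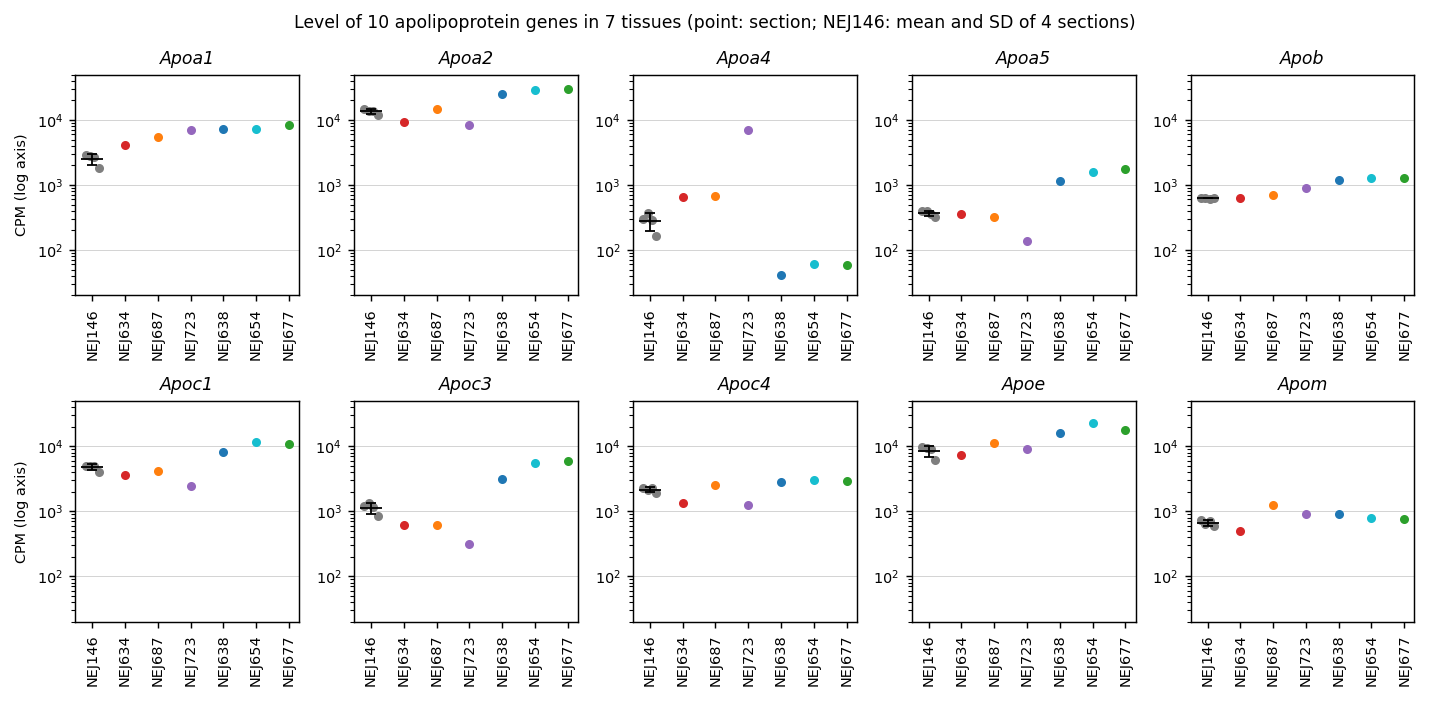
Level of each apolipoprotein gene in CPM (log axis) in the 7 tissues; points are sections, and the bar of NEJ146 is the mean and SD of its 4 sections. Apoa4 runs from 40.9 CPM in NEJ638 to 7070 CPM in NEJ723, the tissue in which Apoa5, Apoc1 and Apoc3 are lowest.

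Apoa4, a protein of chylomicrons and high density lipoprotein, had the widest range. Its level was 7070 CPM (95% interval 7045 to 7095) in NEJ723, 685 CPM in NEJ687 and 657 CPM in NEJ634. In NEJ146 it was 298, 377, 285 and 166 CPM in sections 1 to 4, and in NEJ638, NEJ654 and NEJ677 it was 40.9, 60.7 and 58.6 CPM (95% intervals 39.1 to 42.7, 58.3 to 63.1 and 56.3 to 61.1). NEJ723 therefore stood 10.3-fold above the next tissue and 173-fold above the lowest. NEJ687 and NEJ634, and NEJ654 and NEJ677, were closer to each other than 1 SD of log2 CPM between the NEJ146 sections, and the latter pair had overlapping intervals. Apoa4 was the only one of the 10 genes at least 2-fold above every other tissue, where 0.187% of all genes were so in NEJ723 and 1.52% in any tissue. In NEJ723 Apoa4 made up 18.7% of the UMIs of the 10 genes, against 0.0622 to 2.30% in the other sections.

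The 3 members nearest to Apoa4 on chromosome 9 ranged 18.5-fold (Apoc3), 3.33-fold (Apoa1) and 12.6-fold (Apoa5) from lowest to highest tissue, and none of them had its highest level in NEJ723. These folds depend on scaling to the total. By median-of-ratios size factors the ranges were wider, 260 to 7318 CPM (Apoc3), 2595 to 10513 CPM (Apoa1) and 114 to 2180 CPM (Apoa5). The genes on either side of the cluster were flat. Sik3, a kinase gene upstream of Apoa1, was between 29.6 and 35.7 CPM in the 7 tissues, and Zpr1, downstream of Apoa5, between 50.4 and 73.1 CPM. The antisense transcript Gm10680 overlaps Apoa4 by 839 bases, and like Apoa4 it was highest in NEJ723, at 6.28 CPM against 0.0509 to 1.41 CPM elsewhere. The antisense Gm47544 overlaps Apoa5 by 1331 bases and did not exceed 1.76 CPM. Whether the counting used the strand was not stated in the sources used here, so reads of these pairs cannot be told apart with certainty.

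Markers of enterocytes, in which Apoa4 is abundant, were compared in the same sections. The 9 genes of the list summed to 164 CPM in NEJ723 and to 75.9 to 179 CPM in the other sections. Most of each sum was Fabp2, at 113 CPM in NEJ723 and 62.0 to 161 CPM in the other tissues. Lgals4 was at 39.8 CPM in NEJ723 and 16.4 to 27.8 CPM elsewhere. It was 1 of 6 genes of the list that were highest in NEJ723, with Sis, Lct, Alpi, Cdx1 and Cdx2, and the other 5 did not exceed 0.412 CPM there. Vil1 and Guca2b were at 5.32 and 4.35 CPM in NEJ723 and at 6.03 and 5.78 CPM in NEJ634, but at most 0.430 and 0.0586 CPM in NEJ638, NEJ654 and NEJ677. No gene of the list was at 0 in NEJ723, against 2 to 6 genes in the others. S100g and Rbp2, a calcium and a retinol binding protein of the intestine, were at 1101 and 244 CPM in NEJ723 and at no more than 224 and 55.0 CPM elsewhere, which was known when the genes were chosen. The part of intestinal genes in the Apoa4 level was not tested.

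Apoa5, which promotes the lipolysis of triglyceride by lipoprotein lipase, was lowest where Apoa4 was highest. Its level was 1153, 1568 and 1752 CPM in NEJ638, NEJ654 and NEJ677, and 364 CPM in NEJ634, 327 CPM in NEJ687 and 140 CPM in NEJ723. The NEJ146 sections had 399, 396, 356 and 323 CPM. NEJ146 and NEJ634 did not differ beyond 1 SD of the NEJ146 sections, while NEJ723 was 2.34-fold below the next tissue. It was the only one of the 10 genes at least 2-fold below every other tissue (2.53% of all genes in NEJ723 and 3.86% in any tissue).

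Apoc3, an inhibitor of lipoprotein lipase and of particle uptake, resembled Apoa5 in order. It was at 5880 CPM in NEJ677, 5466 in NEJ654 and 3107 in NEJ638, at 1134 ± 213 CPM (SD, n = 4) in NEJ146, and at 621, 607 and 319 CPM in NEJ634, NEJ687 and NEJ723. Scaled to the total, the range was 18.5-fold, and NEJ723 lay 1.91-fold below NEJ687. By size factors the range was wider, from 260 CPM in NEJ723 to 7318 CPM in NEJ677. NEJ677 and NEJ654 (only with section 4 of NEJ146 in the SD), and NEJ634 and NEJ687, were within 1 SD of the NEJ146 sections of each other. Opposed in their known action on lipoprotein lipase, Apoa5 and Apoc3 thus shared the order of the 7 tissues when scaled to the total. By size factors NEJ634 and NEJ687 changed places for Apoc3 (505 and 516 CPM) but not for Apoa5 (296 and 278 CPM). Pearson r between the log2 levels of both genes over the 7 tissues was 0.98. Apoc1 ran as closely with either gene (0.98 with Apoa5 and 0.99 with Apoc3). The same measure was -0.95 between Apoa5 and Apoa4, and Apoa4 had -0.94, -0.94 and -0.92 with Apoc1, Apoc3 and Apoa2. With Apoa1 and Apom it had -0.23 and 0.08. All these values are descriptions over tissues that share scaling to the total.

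Apoc1, an inhibitor of remnant uptake, had 8190, 11635 and 10673 CPM in NEJ638, NEJ654 and NEJ677 and 3555, 4220, 2426 and 4757 ± 504 (SD, n = 4) CPM in NEJ634, NEJ687, NEJ723 and NEJ146. Its range was 4.80-fold, with no overlap between the former 3 tissues and the latter 4. Apoc4, a minor apolipoprotein of the very low density particle, varied less (2.37-fold), from 1255 CPM in NEJ723 to 2979 CPM in NEJ654. Here NEJ638, NEJ654 and NEJ677, at 2852, 2979 and 2920 CPM, were within 1 SD of the NEJ146 sections of each other, and NEJ687 followed at 2527 CPM. The gene Gm44805 overlaps Apoc4 by 3341 bases on the same strand and was nearly without UMIs (at most 0.0941 CPM). Reads shared by both can be dropped in counting, so the Apoc4 level is uncertain.

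The main proteins of high density lipoprotein differed in their order. Apoa2 had 24847, 29265 and 29432 CPM in NEJ638, NEJ654 and NEJ677, at 14685 CPM in NEJ687, at 13598 ± 1293 CPM (SD, n = 4) in NEJ146, at 9409 CPM in NEJ634 and at 8448 CPM in NEJ723. Apoa1, the activator of cholesterol esterification in plasma, had 7389, 7252 and 8448 CPM in NEJ638, NEJ654 and NEJ677, and NEJ723 followed at 7046 CPM, closer to NEJ654 than 1 SD of the NEJ146 sections when scaled to the total, but not when scaled by median-of-ratios size factors (5742 against 8597 CPM on that scale). Its lowest tissue was NEJ146 at 2533 ± 472 CPM (SD, n = 4), below NEJ634 at 4170 CPM. NEJ723 was therefore the lowest tissue of Apoa2 and the fourth highest of Apoa1. Apom, the carrier of sphingosine-1-phosphate, was highest in NEJ687 (1266 CPM) and lowest in NEJ634 (491 CPM), with NEJ638, NEJ723, NEJ654 and NEJ677 at 913, 909, 791 and 758 CPM and NEJ146 at 670 ± 68.7 CPM (SD, n = 4).

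Scaled to the total, Apob had the narrowest range of the 10 genes, 2.06-fold from 628 ± 7.46 CPM (SD, n = 4) in NEJ146 to 1293 CPM in NEJ677. NEJ634, NEJ687 and NEJ723 had 637.6, 692 and 900 CPM, and NEJ638 and NEJ654 had 1195 and 1271 CPM. All neighbours in this order differed by more than 1 SD of the NEJ146 sections, which for Apob was only 1.19% of the mean. The 95% interval of NEJ634 (631 to 644 CPM) nonetheless overlapped those of NEJ146 sections 1, 2 and 4, though not that of section 3 (612 to 621 CPM). The order of NEJ634 and NEJ146 is therefore not settled. That SD comes from 1 tissue and does not measure the spread between animals, so it does not settle close neighbours such as NEJ654 and NEJ677 either. Apoe, the ligand of remnant receptors, had 15991, 23139 and 17676 CPM in NEJ638, NEJ654 and NEJ677 and 7364 to 11049 CPM in the other tissues, in which neighbours in the order were closer than 1 SD of the NEJ146 sections. That SD rests on section 4, at 6075 CPM against 8939 to 9902 CPM in the others, and without it NEJ146 and NEJ723 were the only tissues of Apoe within 1 SD. Section 4 was the lowest NEJ146 section for 9 of the 10 genes (all but Apob), and the SD of log2 CPM was over 1.5 times smaller without it for 8. Over all 10 genes, 20 of 60 neighbouring pairs in the order of tissues were closer than 1 SD of the NEJ146 sections, and 13 without section 4. When levels were scaled by median-of-ratios size factors instead of the total, the level of the median gene shifted by -0.30 (log2) in NEJ634 and NEJ723 to 0.32 in NEJ677. Apob was then lowest in NEJ634 and Apoc4 highest in NEJ677, and other neighbours changed places (NEJ634 and NEJ687 for Apoc3, for example), while Apoa4 remained highest and Apoa5 lowest in NEJ723. On that scale Apob ran from 519 CPM in NEJ634 to 1610 CPM in NEJ677. Apom, from 399 CPM in NEJ634 to 1076 CPM in NEJ687, then had the narrowest range.

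Of 45 other genes of lipoprotein handling, 37 passed the minimum level. For 11 of them NEJ638, NEJ654 and NEJ677 were the 3 highest tissues, among them Tm6sf2 (lipidation of the nascent particle), Lipc (hepatic lipase) and the receptor Lrp1, and for 6 the 3 lowest, among them the Apob mRNA editing enzyme gene Apobec1 and Lpl (lipoprotein lipase). Of all 8021 genes tested, 18.1% had them as the 3 highest and 44.1% as the 3 lowest. The microsomal transfer protein gene Mttp, which loads lipid onto Apob, was between 127 CPM in NEJ654 and 223 CPM in NEJ687. A tissue at least 2-fold above all others was found for Angptl4, an inhibitor of lipoprotein lipase, at 162 CPM in NEJ677 (2.13-fold). At least 2-fold below all others were the sterol exporters Abcg5 and Abcg8 in NEJ723 (8.39 and 10.5 CPM, 3.19- and 3.20-fold). The same held for Lpl (51.4 CPM, 2.01-fold) and the lipase inhibitor G0s2 (27.3 CPM, 2.62-fold) in NEJ677. Those were 1 gene above and 4 below of 37, where 1.52% of all genes were above and 3.86% below every other tissue by that fold.

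The genes most like Apoa4 over the 7 tissues, by Pearson r of log2(CPM + 1), were Zfp593 (0.999), Tmed4 (0.988), Prkca (0.987), Nfkbib (0.986) and Ap1g2 (0.985). All 5 were highest in NEJ723 but over a much narrower range, as with Zfp593 from 14.2 to 43.7 CPM. The genes most like Apoa5 were Adtrp (0.996), Reps2 (0.995), Pank1 (0.994), Ube2h (0.993) and Mbl1 (0.993). Adtrp, a lipid hydrolase gene, ran from 27.6 CPM in NEJ723 to 154 CPM in NEJ677.

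Within sections, the UMIs of each tissue spot and its adjoining tissue spots (at least 4 of 6) were summed to a neighbourhood level. The ratio of the 90th to the 10th percentile of these levels is given as the spatial fold, for genes of at least 50 CPM in the section. It contains counting noise, so low genes have higher folds. A spatial fold of 2 or more was found in 17 of 69 combinations of gene and tissue (73.0% of all combinations of gene and tissue). Among genes of at least 300 CPM it was found in 13 of 65, against 13.7% of all such combinations. These lay in NEJ634 (5 of 10 genes; 16.2% of all genes of that level), NEJ146 (4 of 9; 21.8%), NEJ687 (3 of 10; 20.4%) and NEJ723 (1 of 9; 7.64%). In NEJ638, NEJ654 and NEJ677 there was none among 9 genes each (9.55%, 9.76% and 10.9%).

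**Figure D2:**
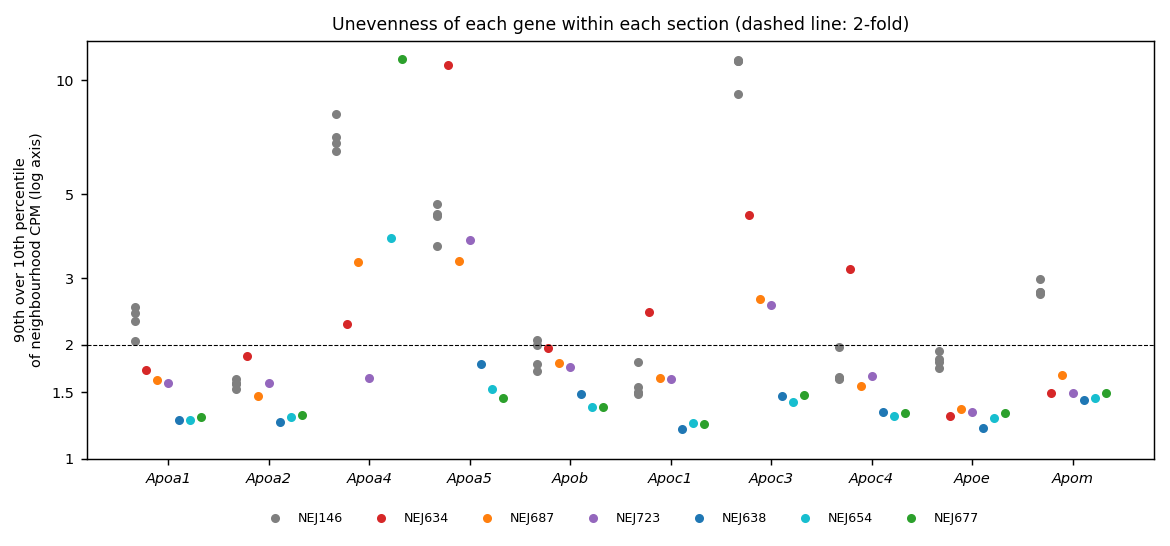
Spatial fold of each gene in each tissue (90th over 10th percentile of neighbourhood CPM, log axis), with NEJ146 as its 4 sections and a dashed line at 2-fold. Apoa5 in NEJ634 (10.97) and Apoc3 in NEJ146 (10.7 ± 1.02, SD, n = 4) stand above the other values except Apoa4 in NEJ677, which rests on 6.13 UMIs per median neighbourhood.

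Apoa5 in NEJ634 was unevenly spread. Neighbourhood levels were 72.2 CPM at the 10th and 792 CPM at the 90th percentile, a 10.97-fold difference that 0.827% of the 2902 genes of that section matched or exceeded. The fold was 10.97 over spots with at least 5000 UMIs as well. That minimum lies far below the median of 28926.5 UMIs per tissue spot in NEJ634, so the unchanged fold says little about depth. Apoa5 correlated with the UMIs of the neighbourhood by r = 0.25. The part of depth was not tested. Apoc3, Apoc4 and Apoc1 had spatial folds of 4.41, 3.18 and 2.44 in that section, and Apoa4 had 2.27. Apoe and Apom, by contrast, had 1.298 and 1.49.

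Of the other 4 uneven genes of NEJ634, 3 followed Apoa5. Over 1824 overlapping neighbourhoods, which share spots and library, it correlated with Apoc3 (r = 0.86), Apoc4 (0.83) and Apoc1 (0.82), and weakly and negatively with Apoa4 (-0.24). Of the more even genes, Apoa2 ran with it (0.63) and Apoa1, with a spatial fold of 1.72, against it (-0.40). Apoc3, Apoc4, Apoc1 and Apoa2 also correlated with the UMIs of the neighbourhood (r = 0.38, 0.47, 0.45 and 0.52), where Apoa4 and Apoa1 had 0.05 and 0.33. The part of depth in these pairs was not tested. Apoa5 also ran with Cyp2e1 (0.79), a pericentral hepatocyte enzyme, and against Afp (-0.80), whereas Apoa1 ran with Afp (0.65) and Alb (0.78). The genes most like Apoa5 there were the imprinted transcript H19 (0.94), the antioxidant enzyme gene Gpx1 (0.93), Gstm1 (0.89), Igfbp1 (0.89) and Slc25a47 (0.89). The least like were A2m (-0.89), Serpina1e (-0.89) and Fabp5 (-0.88).

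**Figure D3:**
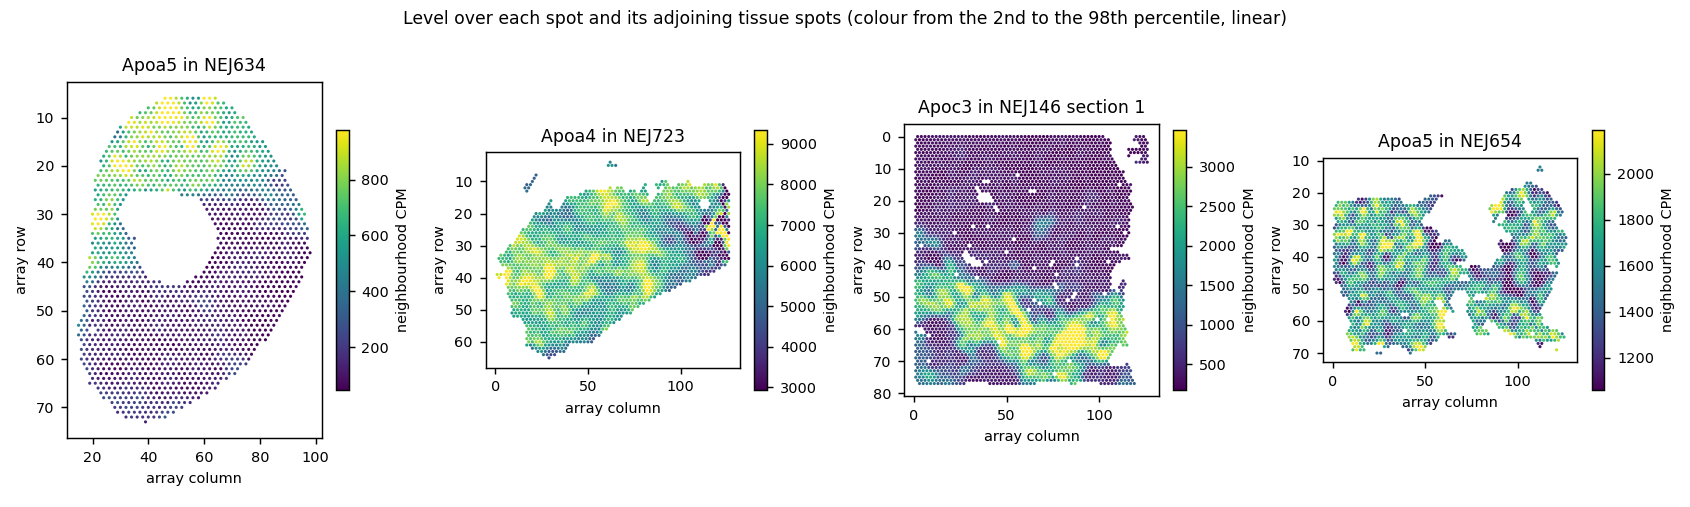
Neighbourhood levels in CPM (colour) drawn at the array positions of the tissue spots, for Apoa5 in NEJ634 and NEJ654, Apoa4 in NEJ723 and Apoc3 in section 1 of NEJ146. Apoa5 in NEJ634 and Apoc3 in NEJ146 show areas of high and of low level at opposite ends of the array, with 90th percentiles of 792 and 2720 CPM and 10th percentiles of 72.2 and 242 CPM, whereas Apoa4 in NEJ723 is high across the section (10th percentile 5176 CPM).

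Apoa4 in NEJ723, the tissue of its high level, had a spatial fold of 1.64, against a median of 1.59 for all genes of at least 300 CPM there. That median includes lower genes, whose folds hold more counting noise. Other high genes of that section lay on both sides, with Apoe at 1.33, Apoa1 at 1.59 and Alb at 2.01. Neighbourhood levels of Apoa4 in NEJ723 were 5176 CPM at the 10th and 8491 CPM at the 90th percentile, so the 10th percentile exceeded the level of every other tissue. Over its 2243 neighbourhoods the genes most like Apoa4 were those of ribosomal proteins, Rps19 (r = 0.58), Rpl5 (0.57), Rpl34 (0.56), Rpl24 (0.56) and Rpl12 (0.55), and the least like were mt-Co3 (-0.24), Gm42418 (-0.22) and mt-Nd1 (-0.10). Apoa4 correlated with the UMIs of the neighbourhood (r = 0.45), and 182 of the 2396 tissue spots had under 500 UMIs. Its fold was 1.49 over spots of at least 5000 UMIs. The part of depth in these correlations was not tested. Apoa5 and Apoc3 had spatial folds of 3.79 and 2.55 in NEJ723, but both correlated with the UMIs of the neighbourhood (r = 0.80 each), and the folds were 2.89 and 2.11 over spots of at least 5000 UMIs.

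In NEJ146 the 4 adjacent sections gave like patterns. The spatial fold was 10.7 ± 1.02 for Apoc3, 7.15 ± 0.71 for Apoa4, 4.30 ± 0.46 for Apoa5, 2.81 ± 0.12 for Apom and 2.33 ± 0.20 for Apoa1 (SD, n = 4). Apoc3 ran with Alb (r = 0.78 to 0.83 in the 4 sections), Cyp2e1 (0.75 to 0.81) and Apoa5 (0.74 to 0.79). Apom ran the other way, against Apoc3 (-0.75 to -0.65) and with Afp (0.74 to 0.77). Apoa4 here ran with Apoc3 (0.54 to 0.66) and Apoa5 (0.25 to 0.43), unlike in NEJ634. Apoa2 ran with Apoc4 (0.79 to 0.85) and Apoc1 (0.68 to 0.84). Apom correlated negatively with the UMIs of the neighbourhood (-0.53 to -0.39), whereas Apoc3 (0.18 to 0.50), Apoa5 (0.15 to 0.43) and Apoa4 (0.02 to 0.29) correlated positively, and the part of depth in these patterns was not tested.

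In NEJ687 Apoa4, Apoa5 and Apoc3 had spatial folds of 3.31, 3.33 and 2.64, which were 2.98, 2.65 and 2.40 over spots of at least 5000 UMIs. All 10 genes correlated with neighbourhood UMIs in that section (r = 0.43 to 0.70). In NEJ638, NEJ654 and NEJ677 the 9 genes other than Apoa4 had spatial folds of 1.20 to 1.78. Apoa4 was under 50 CPM in NEJ638, and its folds in NEJ654 (3.83) and NEJ677 (11.4, or 3.54 over spots of at least 5000 UMIs) rest on 7.02 and 6.13 UMIs per median neighbourhood. In NEJ654, over 2221 neighbourhoods, Apoa5 and Apoc3 ran with the periportal enzyme Cyp2f2 (r = 0.68 and 0.62) and Apoa2, Apoc4 and Apoc1 with Cyp2e1 (0.66, 0.55 and 0.43). Apoa4 had 0.28 with Cyp2f2, and Apoa1, Apob, Apoe and Apom had -0.12 to 0.18 with either enzyme. In NEJ638, over 3303 neighbourhoods, Apoa2 ran with Cyp2e1 (0.62), Apoa5 and Apoc3 had 0.38 and 0.32 with Cyp2f2, and Apoc4 and Apoc1 were weakly positive with both enzymes (0.22 to 0.29). In NEJ677 both enzymes correlated with each other at 0.21, against -0.89 in NEJ654, and all 10 genes were positive with both. All 10 also correlated with neighbourhood UMIs there (r = 0.15 to 0.71), and 172 of its 2699 tissue spots had under 500 UMIs. The part of depth was not tested.

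A score of hepatocyte zones was compared with the 10 genes in all 7 tissues, with the tissue as the replicate. Hepatocytes near the central vein and near the portal tract of a liver lobule express different enzymes, and spots of at least 2000 UMIs were ranked by 5 pericentral genes (Glul, Cyp2e1, Cyp1a2, Oat, Slc1a2) against 5 periportal ones (Cyp2f2, Hal, Hsd17b13, Ass1, Pck1). UMIs were summed over the highest 20% (pericentral-rich) and the lowest 20% (periportal-rich) of each tissue, and compared by edgeR's quasi-likelihood test with the tissue as a block. The median UMIs per spot of the pericentral-rich end were 0.92 (NEJ634) to 1.31 (NEJ638) times those of the periportal-rich end. The part of this difference in depth was not tested. The pericentral genes summed to 4185 to 6280 CPM in NEJ638, NEJ654 and NEJ677 and to 81.4 to 479 CPM in the other 4 tissues, and the periportal genes to 3652 to 4166 and 1409 to 2329 CPM. Cyp2e1 and Cyp2f2 were at 1.21 and 8.16 CPM in NEJ723 and at 45.6 and 23.0 CPM in NEJ687, and Slc1a2 was at most 5.11 CPM in those 4 tissues. The ends of the score there rest on few UMIs of the pericentral genes and were not shown to be zones of a lobule. Of 12406 genes tested, 1.12% were higher and 1.76% lower in pericentral-rich spots at an adjusted p below 0.05. Among the 10 apolipoprotein genes, 2 were lower (Apoa5 and Apoc3) and 0 higher.

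Apoa5 was lower in pericentral-rich spots, with a log2 difference of -0.61 ± 0.08 (SE, edgeR adjusted p = 0.00427), with the same sign along the score in 7 of 7 tissues. Values per tissue are ratios of CPM, while the edgeR estimates use its own scaling (TMM). The level was 772 CPM in pericentral-rich and 1527 CPM in periportal-rich spots of NEJ638, 1187 and 1870 CPM in NEJ654, and 1456 and 1997 CPM in NEJ677. In NEJ634 it was 381 and 597 CPM, in NEJ687 312 and 413 CPM, and in NEJ723 136 and 150 CPM. The log2 difference was -0.98 in NEJ638 and -0.14 in NEJ723 at the extremes, and -0.41 to -0.63 in the NEJ146 sections. Without NEJ634, the tissue for which Apoa5 had been singled out, the difference was -0.59 (edgeR adjusted p = 0.0137). The sign in NEJ634 depended on the genes of the score. Apoa5 ran with Cyp2e1 there, as given above, and when spots were ranked by Cyp2e1 against Cyp2f2 alone it was at 560 CPM in the Cyp2e1 end and 472 CPM in the Cyp2f2 end. With that score the log2 difference was positive also in NEJ723 (0.08) and negative in the other 5 tissues (-0.93 to -0.29).

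Apoc3 was also lower in pericentral-rich spots, with a log2 difference of -0.48 ± 0.10 (SE, edgeR adjusted p = 0.0374), with the same sign in 6 of 7 tissues. The log2 difference was -0.81 in NEJ634, -0.72 in NEJ638, -0.61 in NEJ677, -0.52 in NEJ654, -0.24 in NEJ723 and -0.22 in NEJ687, and 0.04 to 0.44 in the NEJ146 sections. As with Apoa5, the sign in NEJ634 depended on the genes of the score. Ranked by Cyp2e1 against Cyp2f2 alone, Apoc3 there was at 815 CPM in the Cyp2e1 end and 790 CPM in the Cyp2f2 end (log2 0.05). With that score NEJ146 was at 0.19 and the remaining tissues were at -0.68 to -0.08. Over the tissues other than NEJ687 and NEJ723, Apoa5 and Apoc3 were still called (edgeR adjusted p = 0.00191 and 0.0465). The Apoc3 call was lost without NEJ634, NEJ638, NEJ654 or NEJ677 (edgeR adjusted p = 0.0776, 0.109, 0.103 and 0.0929) and with 33.3% of the spots at each end (adjusted p = 0.0827), and neither gene was called when the score held Cyp2e1 and Cyp2f2 alone (adjusted p = 0.154 for Apoa5 and 0.207 for Apoc3). Macrophage genes differed along the same axis in some tissues, such as Adgre1 by -1.19 and Clec4f by -0.96 (log2) in NEJ677, and their part in the result was not tested.

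**Figure D4:**
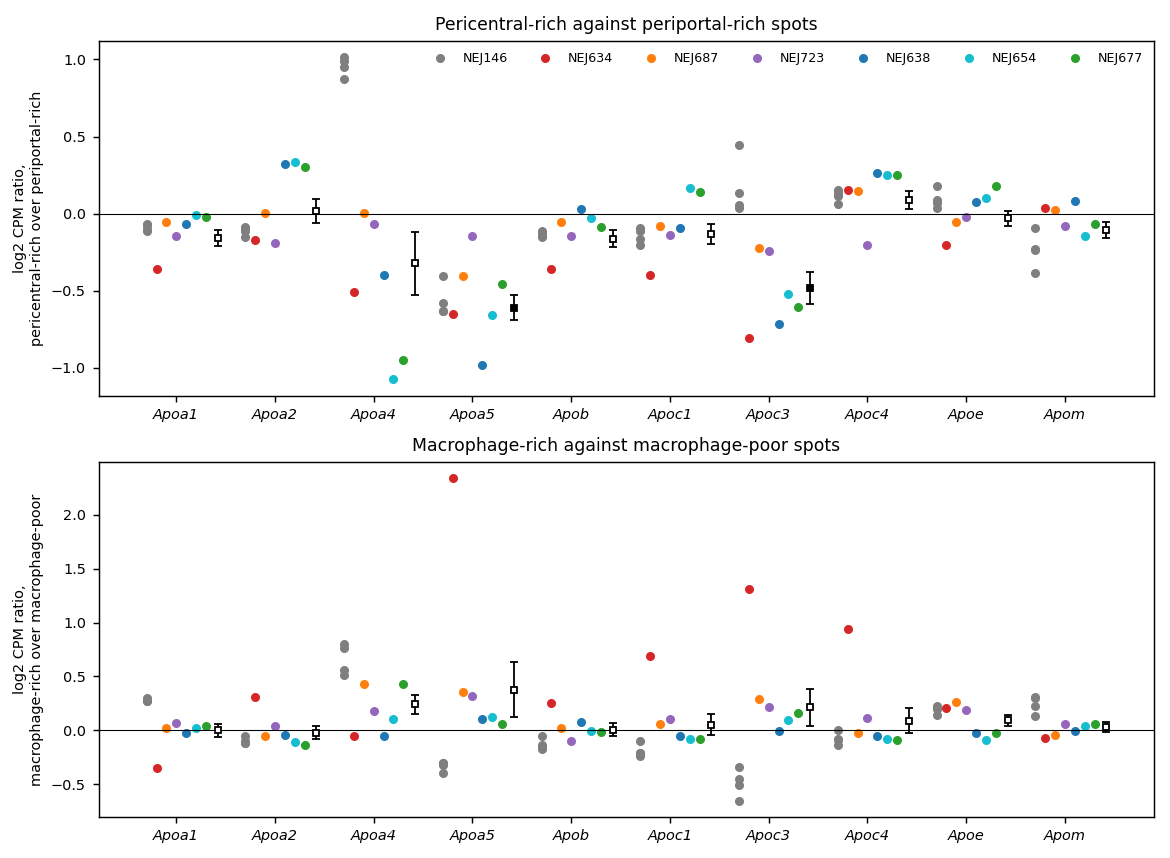
Log2 difference of each gene between pericentral-rich and periportal-rich spots and between macrophage-rich and macrophage-poor spots, with points for tissues (NEJ146 as its 4 sections) and a square for the edgeR estimate with its standard error (filled where the adjusted p was below 0.05). Apoa5 lies below 0 along the 10-gene score in every tissue, from -0.98 to -0.14 (in NEJ634 and NEJ723 the sign turns with Cyp2e1 against Cyp2f2 alone), while NEJ634 stands apart in the macrophage comparison (Apoa5 2.34).

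The other 8 genes did not pass the test. Apoa1 (-0.16 ± 0.05, edgeR adjusted p = 0.140) was negative in 7 of 7 tissues and Apob (-0.16 ± 0.06, adjusted p = 0.159) in 6 of 7. Apoa2 had values of 0.30 to 0.33 in NEJ638, NEJ654 and NEJ677 and of -0.19 to 0.00 in the other tissues, and its estimate over all was 0.02 ± 0.08 (edgeR adjusted p = 0.973). Apoa4 was at 0.87 to 1.02 in the NEJ146 sections and at -1.08 to 0.01 in the other tissues (-0.32 ± 0.21, edgeR adjusted p = 0.487). In NEJ638, NEJ654 and NEJ677 alone, a choice made after seeing the data, 7.41% of 11881 genes were higher and 8.16% lower in pericentral-rich spots. There Apoa5 (-0.76), Apoc3 (-0.68) and Apoa4 (-0.88) were lower and Apoa2 (0.25) was higher, with edgeR adjusted p-values of 0.00011, 2.2e-05, 0.000805 and 0.0127. Over all 7 tissues, the estimates of Apoc4, Apoe, Apom and Apoc1 were 0.09, -0.03, -0.11 and -0.13. Of 45 other lipoprotein genes, 41 were tested here, of which Vldlr, the receptor for very low density lipoprotein, was higher by 1.42 ± 0.30 (1 gene, where 1.12% of all genes were higher over the 7 tissues). Lower were 3 genes (1.76% of all), Apoc2, the activator of lipoprotein lipase (-0.50 ± 0.12), Tm6sf2 (-0.30 ± 0.05) and Apof (-0.26 ± 0.06), with edgeR adjusted p-values of 0.0161 to 0.0488 over the 4 genes.

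Apoe is also made by macrophages, and spots were therefore ranked by 8 macrophage genes (Clec4f, Vsig4, Csf1r, Adgre1, C1qa, C1qb, C1qc, Cd5l) and their highest and lowest 20% compared in the same way. The median UMIs per spot of the macrophage-rich end were 0.76 (NEJ146 section 3) to 1.39 (NEJ677) times those of the other end. The part of depth was not tested here either. Of 12260 genes tested, 4.10% were higher and 0.0979% lower in macrophage-rich spots. None of the 10 apolipoprotein genes was called by edgeR, and DESeq2 called 0 as well. At an unadjusted p below 0.05 there was 1 gene by edgeR (Apoa4, 0.24 ± 0.09, adjusted p = 0.216), where 13.4% of all genes were below it. Apoe was at 0.09 ± 0.05 (edgeR adjusted p = 0.534), positive in 4 of 7 tissues. Without NEJ634, Apoa4 was called (edgeR adjusted p = 0.0438). Of the 41 other lipoprotein genes tested, Pltp (phospholipid transfer, 1.02 ± 0.14), the sterol exporter Abcg1 (0.66 ± 0.09) and Apobec1 (0.43 ± 0.08) were higher in macrophage-rich spots, with edgeR adjusted p-values of 0.00182, 0.0019 and 0.0121.

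NEJ634 stood apart from the other tissues in this comparison. Apoa5 was at 644 CPM in its macrophage-rich and 127 CPM in its macrophage-poor spots, a log2 difference of 2.34, and Apoc3 at 953 and 383 CPM (1.32). In the other tissues Apoa5 ranged from -0.39 in a section of NEJ146 to 0.36 in NEJ687. The Kupffer cell genes Clec4f and Vsig4 were at 0.275 and 0.665 CPM in NEJ723, against 75.2 to 152 and 22.5 to 83.7 CPM in the other tissues. In most spots of NEJ723 the ranking therefore rested on the other 6 genes. Each gene was scaled to its own spread, so the few spots with a UMI of Clec4f or Vsig4 were ranked strongly by it.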

How the data were processed

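For each of the 10 sections the files deposited by the authors hold raw counts of UMIs by gene and spot, with no filter and no normalisation. The submitters' processing notes name Cell Ranger 6.0 for NEJ146 and Space Ranger 1.3 with build mm10 for the other 6 tissues, while the methods name Space Ranger. The build of NEJ146 is not given in the sources used here, nor is strand use in counting. Tissue spots were those of the deposited position files. For NEJ146, where no such file was used here, they were spots with 8000 or more UMIs, and array positions were taken from the same barcodes of the other sections (4989 barcodes are shared by all 10 sections, as the slide design fixes them). No doublet caller was run.

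Counts were summed over tissue spots to CPM, with a minimum mean of 10 CPM for tests of range (50 CPM for spatial folds). No test between tissues was run, since each group is 1 tissue. Zone and macrophage comparisons used edgeR 4.0.16 in R 4.3.3 (TMM, filterByExpr, quasi-likelihood test, tissue as block, Benjamini-Hochberg over all genes tested), with the genes of each score left out. DESeq2 1.42.0 was an alternative. Spots came from the highest and lowest 20% by score, and p-values measure the spread over 7 tissues of mixed kind. The edgeR step and the spatial measure were tested on simulated data. Other values used Python 3.11.15 with numpy 2.4.6, scipy 1.17.1 and pandas 2.3.3, and figures matplotlib 3.10.9.

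The 10 genes and the lists were chosen with earlier results of these data known. Named were all 10 genes, the 5 genes most like Apoa4 and Apoa5 over tissues, the 5 most and 3 least like them within NEJ723 and NEJ634, genes of the lipoprotein list past 2-fold or past the test, and chromosomal neighbours within 100 kb. Examples of the lipoprotein list without such a call were chosen after their values were seen.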

Additional observations from a re-analysis of the deposited data

Results flagged for a closer look

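Over the 4 adjacent NEJ146 sections, 41 values were checked for 1 section standing apart from the other 3, and 4 did, where chance gives about 1 in 20. Section 4 had the lowest Apoc1 level, 4003 CPM against 4981, 4985 and 5060 CPM in the others. It was the lowest section for 9 of the 10 genes, which took 2.81% of its UMIs and 3.60 to 3.81% in the others. Section 4 also had the highest spatial fold of Apom, 2.99 against 2.73 to 2.76. Section 2 had the lowest spatial fold of Apoc3, 9.21 against 11.2 to 11.3, and the highest of Apoc4, 1.97 against 1.62 to 1.65.

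Each of the 10 genes was checked along both scores for all NEJ146 sections going one way and the other 6 tissues the opposite way. This held in 2 cases, and neither difference was tested. The share of all genes that split this way was not counted, and batch and tissue cannot be told apart in NEJ146. The log2 difference of Apoc3 between pericentral-rich and periportal-rich spots was 0.17 ± 0.19 over the NEJ146 sections (SD, n = 4) and -0.81 to -0.22 in the other tissues. The log2 difference of Apoa5 between macrophage-rich and macrophage-poor spots was -0.33 ± 0.04 over the NEJ146 sections (SD, n = 4) and 0.06 to 2.34 in the other tissues.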

How the results depend on the processing

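Apoa4 kept its excess in NEJ723 (3.31 to 3.37 on the log2 scale) and Apoa5 its deficit there (-1.29 to -1.23), both against NEJ687 as the next tissue. Settings that changed only NEJ146, the fold or the minimum level left these ratios fixed, so they are no check of them. Leaving out 1 NEJ146 section, for example, gave 3.37 and -1.23 each time. Only settings that alter the counts or the scaling of NEJ723 and NEJ687, such as median-of-ratios size factors, could move them. The count of apolipoprotein genes below every other tissue was 0 at 3-fold and 3 at 1.5-fold (1.90% and 8.79% of all genes), and that of other lipoprotein genes above or below was 2 at 3-fold, 9 at 1.5-fold and 10 with no minimum level (2.23%, 13.1% and 27.9% of all genes). The count of uneven combinations was 11 at 3-fold and 38 at 1.5-fold (35.8% and 94.5% of all combinations). The count of neighbouring tissues closer than 1 SD ranged from 13 to 25 when 1 NEJ146 section was left out, a setting also added after seeing the data. The spatial fold of Apoa5 in NEJ634 was 9.63 with neighbours within 2 steps and 7.50 between the 80th and 20th percentiles. Without NEJ146, a setting chosen after seeing the data, as was the minimum of 5000 UMIs per spot, the counts over tissues were unchanged.

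Along the zones, 1 gene (Apoa5) was called with 33.3% of the spots at each end and 0 with the score of Cyp2e1 and Cyp2f2 alone, and leaving out 1 tissue gave 1 to 2 (1 without NEJ634, NEJ638, NEJ654 or NEJ677). With 10% of the spots Apoa1 was also called (edgeR adjusted p = 0.0335). Along the macrophage score, 1 gene (Apoa4) was called with 10% of the spots and, leaving out 1 tissue, 0 to 1 (1 without NEJ634). Pairing of both ends by tissue was part of the design. Without that replicate block, edgeR called 0 genes of 12406 along the zones, and Apoa5 and Apoc3 differed by -0.69 and -0.60 (log2).

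With NEJ638, NEJ654 and NEJ677 alone, 4 genes were called along the zones, and there Apoc1 and Apoe were 0.0065 and 0.052. This setting and that without NEJ687 and NEJ723, which called 2 genes, were chosen after seeing the data.

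Signs of the edgeR and DESeq2 estimates turned only for genes not called over all 7 tissues. Along the zones, Apoe was 0.011 without the replicate block, Apoc1 and Apoe were 0.042 and 0.019 with the Cyp2e1 and Cyp2f2 score, and leaving out 1 tissue gave Apoe values from -0.050 to 0.012 and Apoa2 from -0.035 to 0.061. Along the macrophage score without the block, Apoa1, Apoc1 and Apoc4 were 0.013, -0.024 and -0.00016. With 10% of the spots Apoa1 and Apob were 0.018 and -0.013, with 33.3% Apob and Apom were -0.00055 and -0.0013, with DESeq2 Apob was -0.010, and with Clec4f, Vsig4 and Csf1r alone Apom was -0.024. Leaving out 1 tissue gave Apoa1 from -0.039 to 0.052, Apob from -0.039 to 0.037, Apoc1 from -0.059 to 0.10 and Apoc4 from -0.052 to 0.13. The causes were not tested. Apoa4 is low in NEJ638, NEJ654 and NEJ677, so its folds within NEJ654 and NEJ677 rest on few UMIs per neighbourhood (7.02 and 6.13 in the median one).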
